A study of Mus musculus with 13 samples.

Results

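The clustered protocadherins are cell surface adhesion proteins encoded side by side on mouse chromosome 18. The 57 protein-coding genes whose symbols start with Pcdha, Pcdhb or Pcdhg were taken from the 55487 genes in the deposited count tables, of which 21974 are protein-coding, and comprise 14 Pcdha, 22 Pcdhb and 21 Pcdhg genes. In GRCm38 the Pcdha cluster spans bases 36930184 to 37187661, the Pcdhb cluster bases 37264938 to 37524479 and the Pcdhg cluster bases 37661793 to 37841873, each on the plus strand. The rule used symbols and no measured value.

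The 13 libraries came from mouse embryonic fibroblasts (MEFs), the mesenchymal cells cultured from whole embryos. The 6 WT libraries were 3 from primary cultures and 3 from spontaneously immortalized lines, with clone numbers 3, 4 and 5, from 3 embryos. The 7 libraries labelled Prkd3-/-, for loss of the gene of protein kinase D3, were 3 from primary cultures 13, 14 and 15 and 4 from immortalized lines 13, 13a, 14 and 15, and which culture line 13a came from is not given in the sources used here. The medium held 10% fetal calf serum. It was raised to 20% once the cultures became senescent, and the lines were established from colonies that grew out of them, with no gene introduced. The paper states that its WT lines were then expanded in 10% serum again. Immortalization, the period in more serum and time in culture cannot be told apart, and the number of founder cells of a line is not given in the sources used here. Poly-A RNA was sequenced, and the counts summed over genes ranged from 35273408 to 100441756 per library. A read pair that overlapped several genes enters this sum once for each of them. Prkd3 was counted at 68.4 to 95.6 CPM (counted pairs scaled to library size) in the WT libraries and from 33.4 CPM upward in those labelled Prkd3-/-, all 7 below the lowest WT library, and since a gene count does not show which exon is missing, it does not check the deletion. The 12 fibroblast markers summed to 30710 to 97570 CPM, most of it from Col1a1, Col1a2 and Fn1, and 2 of them were near 0 in some lines. Lum was at 0.0498 CPM in WT line 3 and 0.294 CPM in Prkd3-/- line 15, and Dcn at 0.680 CPM in WT line 3 and 0.371 and 0.695 CPM in Prkd3-/- lines 13 and 15. Genotype coincides with the count table, so the 2 cannot be told apart.

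In neurons, where these genes are best known, each cell switches on a small and largely random set of isoforms by choosing among the promoters that precede each variable exon, and the set gives the cell a surface identity. CTCF and cohesin loop a chosen promoter to an enhancer, and DNA methylation laid down by Dnmt3b keeps the others silent. Every Pcdha or Pcdhg transcript joins 1 variable exon, which encodes the extracellular cadherin repeats, to constant exons that encode the shared end of the cytoplasmic tail. Each Pcdhb gene carries its coding sequence in 1 exon and has no constant exons. The last isoforms of the Pcdha and Pcdhg clusters, the C-types, are less subject to random choice. A bulk library averages the choices of all its cells, which is why the profiles were examined here line by line.

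Where a pair overlapped several genes, each of them received the count. All Pcdha genes include the same 2860 constant bases, 38.0% to 54.9% of their exon length, and all Pcdhg genes the same 2116 constant bases, 27.7% to 45.9% of theirs. In WT primary library 3, for example, no Pcdha gene had fewer than 680 pairs, and the second highest gene of the cluster had 722. The deposited counts of these genes therefore hold the expression of the whole cluster, and isoform choice was read from the variable-exon excess, which is the count of a gene minus the smallest count in its cluster in the same library. Pairs that touch a constant exon cancel in this difference, so the excess holds pairs that lie within the exons of the gene itself, less those of the gene with the smallest count, the baseline. Pcdhb counts were used as they are.

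Among the 18 Pcdhga and Pcdhgb isoforms, the 6 primary libraries had nearly the same broad profile and the 7 immortalized lines had narrower ones that differed from line to line. The share of an isoform was its part of the summed excess, 3293 to 16855 pairs per library. Pcdhgb2 had the largest share in every primary library, at 14.2%, 13.7% and 14.997% in WT cultures 3, 4 and 5 and 12.4%, 11.5% and 12.6% in Prkd3-/- cultures 13, 14 and 15. The leading isoform was thus the same over cultures and genotypes.

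In the immortalized lines 5 different isoforms led. In WT lines 3 and 4 it was Pcdhga3, at 24.0% (exact 95% interval 23.1% to 24.9%, for counting error only) and 18.4% (17.7% to 19.1%), while in WT line 5 it was Pcdhgb6 at 18.7% (18.1% to 19.4%). Among the Prkd3-/- lines, Pcdhgb6 led in line 13 at 38.4% (36.7% to 40.1%), Pcdhgb1 in line 14 at 42.8% (42.0% to 43.7%) and Pcdhgb7 in line 15 at 32.5% (31.5% to 33.4%). Line 13a was the exception, with Pcdhgb2 in the lead at 17.0% (16.2% to 17.8%), as in the primary cultures. The same isoforms led in all 13 libraries when the excess was divided by the length of each gene's own bases. The annotated exons of Pcdhgb7 overlap other genes over 29.7% of their length. Percentages of this kind are of the whole exon length, constant exons included. The overlapped part of a gene's own bases, from which the excess is read, can be larger.

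**Figure D1:**
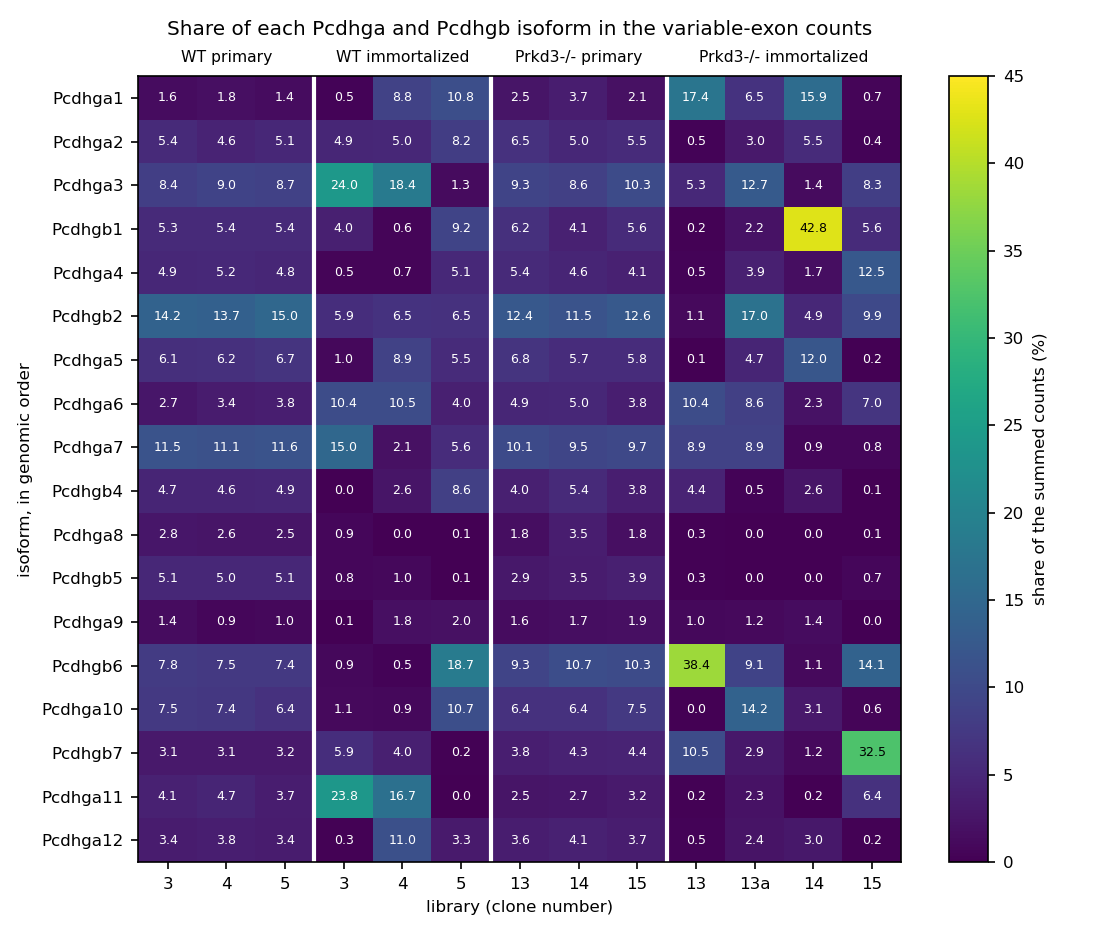
Heat map of the share of each Pcdhga and Pcdhgb isoform (rows, in genomic order) in the summed variable-exon excess of each library (columns, grouped by genotype and state), in percent. The 6 primary columns look alike, with Pcdhgb2 highest, whereas each immortalized column has its own bright cells, such as Pcdhgb1 at 42.8% in Prkd3-/- line 14.

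Near absence of an isoform was seen mainly in lines. An isoform with under 1% of the excess was found at most once in a primary library (Pcdhga9 in WT culture 4) but 3 to 10 times in an immortalized line, the baseline of the line included. Pcdhga11 showed this most plainly within a genotype. It measured 7.04, 8.34 and 6.21 CPM of excess in WT primary cultures 3, 4 and 5, then 33.6 and 35.0 CPM in WT lines 3 and 4, while in line 5 it was the baseline, with no excess. The annotated Pcdhga11 exons overlap other genes, Gm26672 among them, over 42.2% of their length, and reads of such genes cannot be told apart from those of Pcdhga11. Pcdhgb1 measured 12.1, 5.19 and 8.84 CPM in Prkd3-/- primary cultures 13, 14 and 15, against 0.13 CPM in line 13, 2.47 in line 13a, 78.2 in line 14 and 6.91 in line 15. A single line thus held more than all 3 primary cultures together and another held almost none.

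Each line was also set against the mean of the primary libraries of its genotype, as a log2 ratio of CPM plus 0.05. Of the 18 isoforms, 11 were more than 2-fold lower in at least 1 line and more than 2-fold higher in at least 1 other, and 17 were more than 4-fold lower in some line. Pcdhga6 was the exception to the latter, with ratios from -0.80 in Prkd3-/- line 14 to 1.95 in WT line 4. The number of isoforms more than 4-fold lower was 8, 7 and 5 in WT lines 3, 4 and 5 and 12, 3, 6 and 10 in Prkd3-/- lines 13, 13a, 14 and 15. No isoform was more than 2-fold higher in every line. These numbers of low isoforms include the baseline of each line, which was always one of the 18, and its excess is 0 by the subtraction. In the primary cultures the baseline was Pcdhgc4 (WT) or Pcdhgb8 (Prkd3-/-), outside the 18. The share of all genes that meet these criteria was not determined.

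Pcdhga8 and Pcdhgb5 were the 2 isoforms more than 2-fold lower in all 7 lines by this ratio. Pcdhga8 measured 4.82, 4.58 and 4.21 CPM of excess in the WT primary cultures and 1.21, 0.00 and 0.18 CPM in WT lines 3, 4 and 5. In the Prkd3-/- cultures it measured 3.41, 4.44 and 2.87 CPM, and in lines 13, 13a, 14 and 15 it measured 0.17, 0.00, 0.00 and 0.15 CPM. Pcdhga8 was the baseline in WT line 4 and Prkd3-/- lines 13a and 14, so its 0.00 there is set by the subtraction and is not a measured level. In the 4 lines where another gene was the baseline, its excess lay below every primary culture of the genotype. Pcdhgb5 ranged from 8.61 to 8.795 CPM in WT primary cultures against 0.12 to 2.02 CPM in WT lines, and from 4.37 to 6.11 CPM in Prkd3-/- primary cultures against 0.03 to 0.91 CPM in the lines. In a fit of the excess across all genes, added after the data were seen, neither passed in either genotype, with adjusted p-values of edgeR's quasi-likelihood test of 0.231 and 0.133 in WT and 0.412 and 0.506 in Prkd3-/-. Both genes lie next to each other in the middle of the cluster, and were singled out after their values were seen.

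The effective number of isoforms, the inverse of the summed squared shares, gives the number of equally used isoforms that a profile amounts to. For Pcdhga and Pcdhgb it was 13.4, 13.6 and 13.1 in WT primary cultures 3, 4 and 5 and 6.29, 9.02 and 10.3 in the WT lines. For Prkd3-/- it was 13.9, 14.6 and 13.7 in cultures 13, 14 and 15 and 4.70, 10.0, 4.30 and 5.88 in lines 13, 13a, 14 and 15. The states did not overlap in either genotype. The means were 13.4 ± 0.245 against 8.53 ± 2.04 in WT (SD, n = 3 and 3) and 14.05 ± 0.504 against 6.22 ± 2.61 in Prkd3-/- (SD, n = 3 and 4), and no test was made of a score over chosen genes. The summed excess, beside this, was 169 to 177 CPM in WT primary cultures and 141, 210 and 210 CPM in WT lines 3, 4 and 5, and 125 to 194 CPM against 61.0 to 183 CPM in Prkd3-/-.

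**Figure D2:**
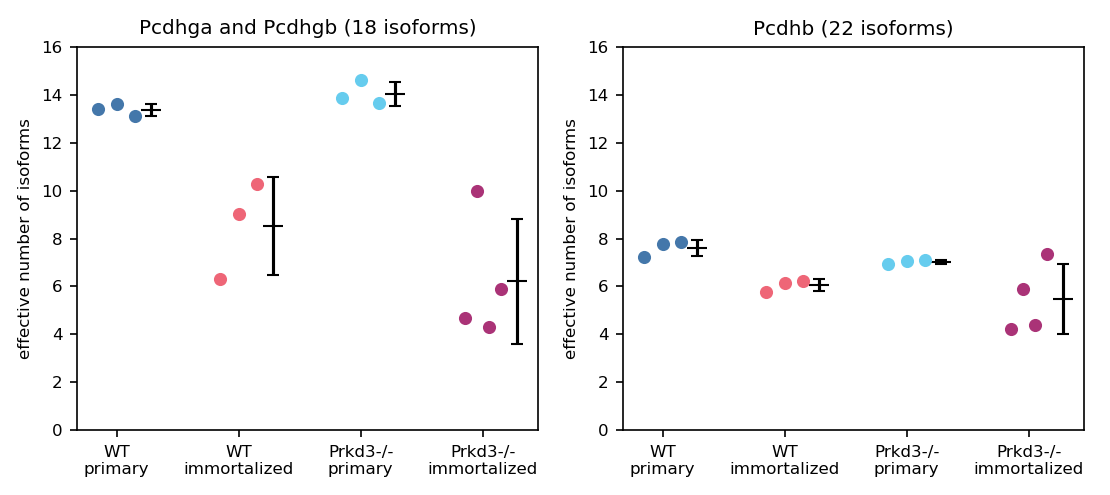
Effective number of isoforms (y axis, a count) in each library by group, for the 18 Pcdhga and Pcdhgb isoforms (left) and the 22 Pcdhb genes (right); points are libraries, and the black marks are the mean and SD of the group. For Pcdhga and Pcdhgb all primary libraries lie above 13 and all lines at 10.3 or lower, whereas for Pcdhb the difference is smaller and Prkd3-/- line 15, at 7.34, lies above the primary libraries of its genotype.

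Pairs of libraries were compared by the overlap of their profiles, the sum over isoforms of the smaller share. Primary cultures of the same genotype overlapped by 92.2% to 96.9% and those of different genotypes by 88.8% to 91.4%. The 9 pairs of lines within a genotype overlapped by 21.3% to 67.7% (median 41.6%), and the 12 pairs of lines across genotypes by 24.1% to 61.9% (median 42.8%). The medians of the 2 kinds of pairs lay close together. WT lines 3 and 4, which share Pcdhga3 and Pcdhga11 as leading isoforms, were the pair of lines with the largest overlap (67.7%), and Prkd3-/- lines 14 and 15 the pair with the smallest (21.3%).

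Leaving out line 13a, which the labels tie to no culture, the overlap of a line with the primary culture of its own clone number had a median of 51.4% over 6 pairs, and with the other primary cultures of its genotype a median of 51.7% over 12 pairs. Lines 13 and 13a overlapped by 45.8%. In line 13, 9 of the 18 isoforms were under 1% of the excess, with Pcdhga10 as its baseline and Pcdhga5, Pcdhgb1, Pcdhga11 and Pcdhga2 at 0.04, 0.13, 0.15 and 0.28 CPM, while line 13a held 16.3, 5.40, 2.47, 2.61 and 3.49 CPM of Pcdhga10, Pcdhga5, Pcdhgb1, Pcdhga11 and Pcdhga2. The annotated Pcdhga10 exons overlap other genes, Gm26672 among them, over 68.5% of their length. That overlap is 3241 bases, beside 628 bases in Pcdhga2, which does not overlap Gm26672, and Pcdhga10 has 2613 bases of its own. Reads of such genes cannot be told apart from the Pcdhga10 excess. Line 13a overlapped with the Prkd3-/- primary cultures by 76.2% to 77.3%, more than any other line with the cultures of its genotype. These values describe the profiles only, and the number of founder cells of a line was not tested.

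The spread among lines was wide for these isoforms, given here as a description. The median coefficient of variation over the 18 isoforms was 5.55% among WT primary cultures, beside 6.24% over the 21197 genes tested across all libraries, and 84.7% among WT lines, beside 24.6%. For Prkd3-/- it was 22.5% beside 19.0% in primary cultures, and 113% beside 38.8% in lines. The excess is a part of the count, so its counting error is larger than that of a whole gene of the same level.

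The Pcdhg C-types were described by the same measure. Pcdhgc3 had the largest excess of all Pcdhg genes in each of the 13 libraries, with 264, 276 and 281 CPM in WT primary cultures 3, 4 and 5 and 177, 363 and 593 CPM in the WT lines. In Prkd3-/- it measured 306, 248 and 276 CPM in the primary cultures and 238, 343, 469 and 346 CPM in lines 13, 13a, 14 and 15. Its states overlapped in both genotypes, and no line was without it. Per kilobase of its own bases the mean level of Pcdhgc3 in WT primary cultures was 80.9 CPM, against 8.96 CPM for Pcdhgb2, the leading isoform among Pcdhga and Pcdhgb, although 39.8% of its exon length overlaps other genes such as BC037039. In the fit of the excess the Log2FC of Pcdhgc3 was 0.43 ± 0.43 (SE; adjusted p = 0.631) in WT and 0.34 ± 0.25 (adjusted p = 0.843) in Prkd3-/-. Pcdhgc5 measured 27.1 to 30.3 CPM in WT primary cultures and 26.2, 11.2 and 31.6 CPM in lines 3, 4 and 5, with 17.7 to 25.7 CPM in Prkd3-/- primary cultures and 4.13, 19.4, 18.8 and 17.5 CPM in lines 13, 13a, 14 and 15. Pcdhgc5 was thus more than 4-fold below the primary mean in Prkd3-/- line 13 (log2 ratio -2.46) and more than 2-fold below it in WT line 4 (-1.36). Pcdhgc4 stayed at or below 2.58 CPM in every library and was the baseline in all 3 WT primary cultures. The coefficients of variation among WT and among Prkd3-/- lines were 55.3% and 27.1% for Pcdhgc3, 45.8% and 48.6% for Pcdhgc5 and 100.9% and 71.3% for Pcdhgc4.

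The constant exons of Pcdhg, which sum over all isoforms, measured 504, 494 and 500 CPM in WT primary cultures and 336, 576 and 827 CPM in lines 3, 4 and 5, and 505, 382 and 460 CPM in Prkd3-/- primary cultures and 302, 525, 761 and 492 CPM in the lines. The deposited counts of the 21 Pcdhg genes follow this sum, with Log2FCs between 0.14 and 0.28 in WT and between 0.18 and 0.27 in Prkd3-/- and smallest adjusted p-values of 0.732 and 0.884 (edgeR, quasi-likelihood test). The isoform differences between lines are therefore not visible in the deposited Pcdhg counts themselves.

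The Pcdhb genes lie between the other 2 clusters. Their summed level was 65.6, 69.3 and 71.5 CPM in WT primary cultures and 99.4, 226 and 181 CPM in WT lines 3, 4 and 5. For Prkd3-/- it was 64.0, 46.8 and 44.6 CPM in cultures 13, 14 and 15 and 57.8, 112, 241 and 114 CPM in lines 13, 13a, 14 and 15. All WT lines lay above the WT cultures, and line 13 lay within the range of its cultures.

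Genes were called at an adjusted p-value under 0.01 and a change of at least 2-fold (edgeR's quasi-likelihood test over all genes). In WT, 55 members were tested, and of these 1 was called lower and 2 higher, all Pcdhb genes. Of all 19836 genes tested, 1.76% were called lower and 0.0605% higher. Every WT line was lower than every WT primary culture for 19 of the 55 members (5 of 20 Pcdhb) and higher for 9 (all Pcdhb), where 15.7% of all genes were lower and 16.6% higher in this sense. The others of the 19 were the 14 Pcdha genes, which share their constant-exon pairs and amount to 1 measurement. The share of members lower can therefore not be set against that of all genes. Pcdhb1 had no count in any library, and Pcdhb10 was below the filter on low counts in WT.

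Pcdhb6 was the member called lower. It measured 0.743, 0.629 and 0.690 CPM in WT primary cultures 3, 4 and 5 and 0.116, 0.138 and 0.138 CPM in the lines, which are 39 to 58 pairs against 7 to 9. The groups did not overlap, and the Log2FC was -2.41 ± 0.26 (SE; adjusted p = 0.00687). In Prkd3-/- the gene was already low in primary cultures, at 0.208, 0.141 and 0.112 CPM, and measured 0.093, 0.069, 0.202 and 0.147 CPM in lines 13, 13a, 14 and 15, with a Log2FC of -0.27 ± 0.53 (adjusted p = 0.936).

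Pcdhb17 and Pcdhb18, neighbours near the far end of the cluster, were called higher. Pcdhb17 measured 10.9, 12.1 and 11.7 CPM in WT primary cultures and 33.6, 51.2 and 54.9 CPM in WT lines 3, 4 and 5 (Log2FC 1.97 ± 0.21, adjusted p = 0.00671). Pcdhb18 measured 2.28, 3.42 and 3.55 CPM and 12.6, 16.2 and 14.5 CPM (Log2FC 2.19 ± 0.22, adjusted p = 0.00542). In both genes the WT groups were separated by more than 2-fold. In Prkd3-/-, Pcdhb17 measured 12.1, 9.33 and 8.06 CPM in primary cultures and 9.195, 36.5, 39.7 and 28.6 CPM in lines 13, 13a, 14 and 15 (Log2FC 1.54 ± 0.49, adjusted p = 0.643), so that line 13 lay within the range of the cultures. Pcdhb18 gave 3.49, 2.39 and 2.40 CPM against 2.43, 7.99, 8.31 and 2.99 CPM (Log2FC 0.98 ± 0.52, adjusted p = 0.808). With the embryo number as a replicate block, 0 members and 0 of all genes were called in WT. Without WT primary library 3, 4 or 5 no member was called. Without line 3 there were 5 calls (Pcdhb3 lower and Pcdhb14, Pcdhb17, Pcdhb18 and Pcdhb19 higher), without line 4 there was 1 (Pcdhac2, lower), and without line 5 there were 4 (Pcdhb6 and Pcdhb8 lower, Pcdhb17 and Pcdhb18 higher).

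In Prkd3-/-, 0 of 56 members were called, and 0% of the 20298 genes tested were called in either direction. At an unadjusted p under 0.05 there were 19 members and 1331 genes in all, and DESeq2 called 1 member (Pcdhac2, lower). Of these 19 members, 14 were the Pcdha genes, which share their constant-exon pairs, and 5 were Pcdhb genes. In the deposited counts, which for Pcdha and Pcdhg include the constant exons and so differ from the excess above, every line was below every culture for 0 members and above for 4, all Pcdhb, where 5.53% and 3.83% of all genes were so. The difference of the change between genotypes was called for 0 of 56 members at an adjusted p-value under 0.05, and for 0% of 21197 genes, with 6 members and 841 genes at an unadjusted p under 0.05. DESeq2 called 0 members there, and 11 genes lower and 26 higher. Of the members, Pcdhb6 had the smallest unadjusted p (difference 2.15 ± 0.59 on the log2 scale, Prkd3-/- minus WT, adjusted p = 1.00, edgeR).

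The Log2FCs were also read along the Pcdhb cluster, most of them of genes that were not called. In WT, all 7 genes from Pcdhb2 to Pcdhb8 had a negative Log2FC (median -1.898), and 12 of the 13 tested genes from Pcdhb9 to Pcdhb22 a positive one (median 1.34), Pcdhb11 being the exception. In Prkd3-/-, 5 of the 7 genes from Pcdhb2 to Pcdhb8 had a negative Log2FC (median -0.18), 2 a positive one, and all 14 genes from Pcdhb9 to Pcdhb22 a positive one (median 1.23). Single lines departed from this. For Pcdhb2 to Pcdhb8, Prkd3-/- lines 13, 13a, 14 and 15 were above the primary mean for 2, 2, 3 and 4 of 7 genes. WT lines 3, 4 and 5 were above it for 0, 0 and 1. For Pcdhb9 to Pcdhb22, Prkd3-/- line 13 was below the primary mean for 7 of 14 genes (Pcdhb14, Pcdhb15 and Pcdhb16 at log2 ratios of -2.79, -2.03 and -2.06) and WT line 3 for 4, against 0 to 2 genes in each of the other 5 lines. The rank correlation of genomic order with Log2FC was 0.71 over 20 genes in WT and 0.74 over 21 genes in Prkd3-/-, given as a description, since neighbouring genes share enhancers, sequence and libraries and the split was chosen after the values were seen. The median over all genes tested was 0.04 in WT and 0.07 in Prkd3-/-.

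**Figure D3:**
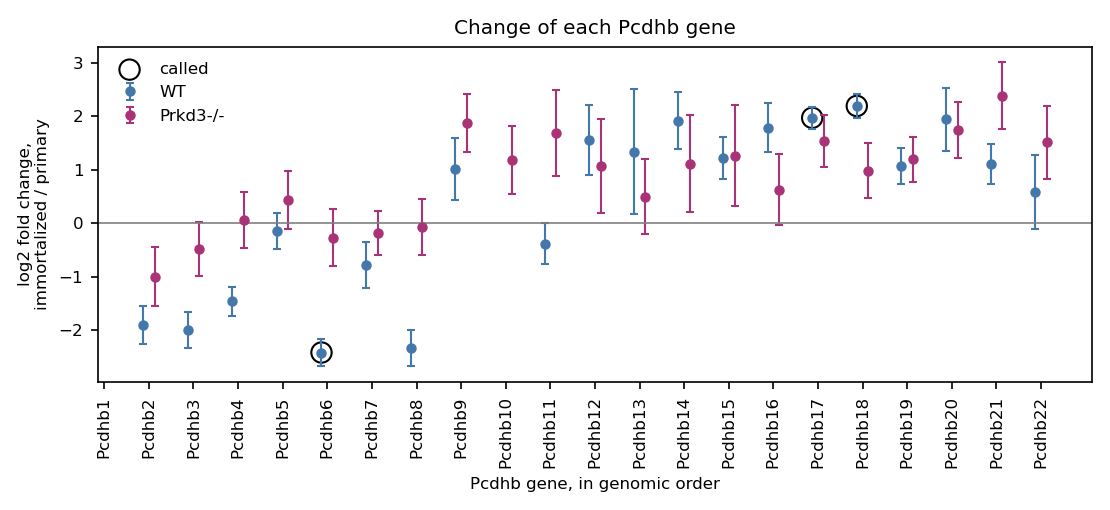
Log2 fold change of immortalized against primary libraries (y axis) for each Pcdhb gene in genomic order (x axis), with the standard error of the fit, for WT and Prkd3-/-; circles mark genes called, and a gene without a point was not tested. The WT points from Pcdhb2 to Pcdhb8 lie below 0, with medians of -1.898 there and 1.34 from Pcdhb9 on.

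Pcdhb profiles were led by few genes in every library. Pcdhb22, the last gene of the cluster, had the largest share of the Pcdhb counts in all 6 primary libraries (25.5% to 28.2%), followed by Pcdhb17 (16.4% to 19.9%). In the lines the lead was divided between the same 2 genes, with Pcdhb22 first in WT line 4 (26.9%) and Prkd3-/- lines 13 (42.8%) and 14 (41.3%), and Pcdhb17 first in WT lines 3 (33.8%) and 5 (30.3%) and Prkd3-/- lines 13a (32.7%) and 15 (25.1%). Per kilobase of own bases the leading genes were the same, except in WT line 4, where Pcdhb17 led. Pcdhb22 measured 18.5, 17.9 and 18.2 CPM in WT primary cultures but 11.4, 60.8 and 11.8 CPM in lines 3, 4 and 5, so that its Log2FC of 0.58 ± 0.69 (adjusted p = 0.697, edgeR) turned to -0.69 without line 4. In Prkd3-/- it measured 17.9, 12.4 and 12.2 CPM in the primary cultures and 24.7, 18.7, 99.4 and 17.3 CPM in lines 13, 13a, 14 and 15.

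**Figure D4:**
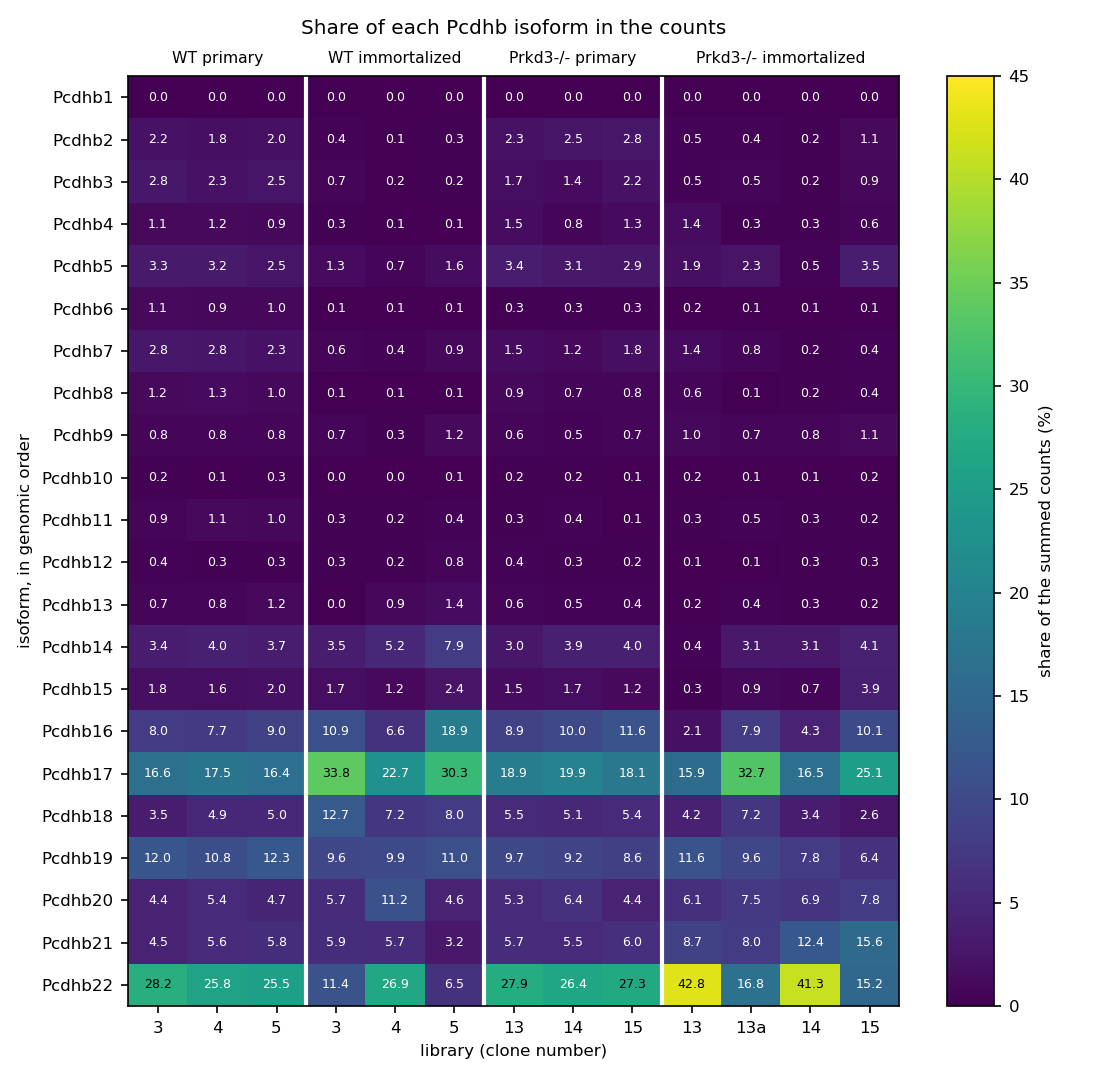
Heat map of the share of each Pcdhb gene (rows, in genomic order) in the summed Pcdhb counts of each library (columns, grouped by genotype and state), in percent. Pcdhb22 is the brightest row in all 6 primary columns, the brightest cell of every line is in the Pcdhb17 or Pcdhb22 row, and Prkd3-/- lines 13 and 14 hold the largest Pcdhb22 shares, 42.8% and 41.3%.

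The effective number of Pcdhb isoforms was 7.22 to 7.84 in WT primary cultures and 5.78 to 6.22 in WT lines, and 6.94 to 7.08 in Prkd3-/- primary cultures and 4.24, 5.90, 4.39 and 7.34 in lines 13, 13a, 14 and 15. Profile overlaps within a genotype were 94.2% to 95.5% among primary cultures and 63.7% to 89.2% among lines. Single genes were low in 1 line and high in another. Pcdhb13 measured 0.033 CPM in WT line 3 but 2.11 and 2.57 CPM in lines 4 and 5, against 0.455 to 0.849 CPM in the cultures. Pcdhb14, at 1.785 to 1.902 CPM in Prkd3-/- primary cultures, measured 0.222 CPM in line 13 and 3.46, 7.48 and 4.68 CPM in lines 13a, 14 and 15. Over all 22 Pcdhb genes, 6 were more than 2-fold lower in 1 line or more and more than 2-fold higher in another. Among these, Pcdhb10 and Pcdhb13 had only 2 pairs each in WT line 3, and the share of all genes that meet this criterion was not determined. The median coefficient of variation of the 21 Pcdhb genes tested was 11.0% in WT primary cultures and 46.8% in WT lines, and 26.4% and 58.0% in Prkd3-/-. Over all genes tested it was 6.24% and 24.6% in WT and 19.0% and 38.8% in Prkd3-/-. Few 100-base stretches of Pcdhb transcripts occur in another family member (at most 2.24% of a gene's stretches, except 7.73% for Pcdhb21 and 5.39% for Pcdhb22, which share 455 bases of annotated exon).

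For Pcdhga and Pcdhgb the shared stretches were at most 2.89% of a gene's variable stretches, except for Pcdhgb1 (32.4%), Pcdhga4 (34.8%) and Pcdhgb2 (9.45%). Pcdhgb1 and Pcdhga4 overlap by annotation over at least 1038 bases. Where Pcdhgb1 was at 78.2 CPM, in line 14, Pcdhga4 was at 3.11 CPM.

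The Pcdha cluster was lower in every WT line than in every WT culture, but no Pcdha gene was called. Its constant exons, which count transcripts of all 14 isoforms, measured 10.3, 10.5 and 15.9 CPM in WT primary cultures and 1.23, 2.59 and 1.61 CPM in WT lines 3, 4 and 5. In Prkd3-/- they measured 31.9, 3.26 and 19.5 CPM in cultures 13, 14 and 15 and 0.315, 1.36, 5.71 and 1.98 CPM in lines 13, 13a, 14 and 15. The WT groups were far apart, while Prkd3-/- culture 14 lay below line 14. The Log2FC of the 14 Pcdha genes was negative in both genotypes, with medians of -2.79 in WT and -2.94 in Prkd3-/-. Their adjusted p-values in WT were 0.0108 or larger, just past the threshold of 0.01, and DESeq2 called all 14 lower. Because these genes share their constant-exon pairs, their values amount to 1 measurement rather than 14.

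Pcdhac2, a C-type isoform that neurons of many kinds express without random choice, had the largest excess of the Pcdha genes in every primary library. Its excess was 8.42, 9.09 and 14.1 CPM in WT primary cultures 3, 4 and 5, against 0.166, 1.03 and 0.430 CPM in the lines. In Prkd3-/- it was 31.1, 2.12 and 17.7 CPM in cultures 13, 14 and 15 and 0.093, 0.756, 0.420 and 0.615 CPM in lines 13, 13a, 14 and 15. Every line was lower than every primary culture of its genotype, and the ratio to the primary mean ranged from -3.29 to -5.62 on the log2 scale in WT and from -4.40 to -6.90 in Prkd3-/-. In the fit of the excess, added after the data were seen, the Log2FC was -4.31 ± 0.69 (adjusted p = 0.0260) in WT and -5.15 ± 1.00 (adjusted p = 0.297) in Prkd3-/- (edgeR), so that it passed 0.01 in neither. Pcdhac1, the other Pcdha C-type, had an excess of at most 4 pairs in any library.

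**Figure D5:**
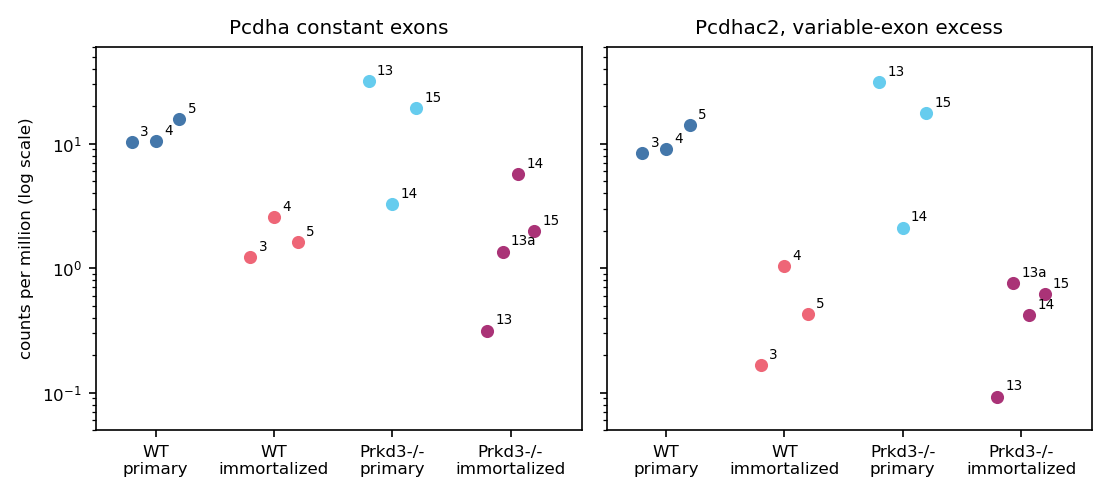
Level in CPM, on a log axis, of the Pcdha constant exons (left) and of the variable-exon excess of Pcdhac2 (right) in each library by group; the numbers beside the points are the clone numbers. The Pcdhac2 excess of every line lies at 1.03 CPM or lower, below all primary cultures, of which Prkd3-/- culture 14 is the lowest at 2.12 CPM.

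Pcdha1 to Pcdha12, the isoforms subject to choice, had a summed excess of 1.42 to 1.59 CPM in WT primary cultures and of 0.382, 1.05 and 1.03 CPM in WT lines, at most 131 pairs in a library. Pcdha12, the last of them before the C-types, led in 9 of the 13 libraries, at 34.4% to 41.6% of this excess in WT primary cultures, although 9.95% of its exon length overlaps another gene. Prkd3-/- line 14 stood apart, with a summed excess of 4.17 CPM (268 pairs), of which 60.4% (exact 95% interval 54.3% to 66.3%) came from Pcdha10. Pcdha10 there measured 2.52 CPM, against 0.139 to 0.263 CPM in Prkd3-/- primary cultures and 0.00, 0.069 and 0.428 CPM in lines 13, 13a and 15. Line 14 is also the line with the largest Pcdhgb1 and Pcdhb22 levels. Pcdha10 also led in line 15 with 32 of 73 pairs. Pcdha3 led in line 13 with 4 of 6 pairs, and Pcdha9 in Prkd3-/- culture 15 with 11 of 38 pairs, numbers too small to rank isoforms.

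Marker genes of other cell types are given beside these values. The summed level of 10 macrophage markers was 665 to 689 CPM in WT primary cultures and 32.5 to 96.0 CPM in WT lines (7 of 10 called lower, 0 higher, and none with the replicate block), and 94.4 to 939 CPM and 9.96 to 160 CPM in Prkd3-/- (0 called). Line 13a held the 160 CPM, against 17.2, 9.96 and 15.5 CPM in lines 13, 14 and 15, and the relation to its isoform profile was not tested. In bulk libraries fewer cells of a type and less RNA per cell cannot be told apart. In Prkd3-/- cultures 13, 14 and 15, where Pcdhac2 was at 31.1, 2.12 and 17.7 CPM, the macrophage sum was 94.4, 939 and 216 CPM, the neuron sum 180, 142 and 165 CPM and the endothelial sum 24.2, 15.4 and 28.9 CPM. Map2, a microtubule protein gene of the neuron list, was at 72.0, 10.5 and 41.7 CPM there. Pcdhac2, Map2 and the neuron and endothelial sums were thus lowest in culture 14, and the macrophage sum highest. Single genes of the neuron and endothelial lists went both ways. In cultures 13, 14 and 15, Kdr of the endothelial list was at 14.5, 3.72 and 21.6 CPM but Emcn at 0.138, 9.70 and 0.335 CPM. Tubb3 of the neuron list was at 37.1, 91.0 and 44.0 CPM, highest where Map2 was lowest. The 8 Schwann and neural crest markers summed to 13.8 to 14.6 CPM in WT primary cultures and 2.23 to 3.98 CPM in WT lines, and to 4.39, 12.3 and 5.41 CPM in Prkd3-/- cultures 13, 14 and 15 and 1.39 to 13.04 CPM in the lines, with 0 of 5 tested called in either genotype. Sox10 and Foxd3, which mark the neural crest lineage, were at most 0.704 and 0.329 CPM in any culture, and Foxd3 was at 0 in every line, Sox10 in every Prkd3-/- line and Cdh19 in every WT line. S100b, of the same list, was at 11.3 CPM in Prkd3-/- line 14, most of the sum there, against 0.0939 to 0.634 CPM in the Prkd3-/- cultures. The 6 endothelial markers summed to 11.5 to 16.2 CPM and 0.382 to 2.01 CPM in WT (1 of 4 tested called lower, and none with the block), and to 15.4 to 28.9 CPM and 1.502 to 17.5 CPM in Prkd3-/- (0 called). The 10 neuron markers summed to 122 to 128 CPM and 61.6 to 196 CPM in WT and 142 to 180 CPM and 21.7 to 127 CPM in Prkd3-/-, with 0 of 7 tested called. The 6 epithelial markers summed to at most 4.34 CPM in any library, with 0 called. The 12 fibroblast markers had 0 called. The part of other cell types in the Pcdha values was not tested.

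Genes known to act on promoter choice were followed as a list. Of 22 regulators, among them Ctcf, the cohesin subunits Rad21 and Smc1a, the DNA methyltransferase Dnmt3b and the chromatin protein Smchd1, all were tested and 0 were called in either genotype, with 1 at an unadjusted p under 0.05 in WT and 0 in Prkd3-/-. Smc1a had the smallest p in WT (Log2FC 0.23 ± 0.08, adjusted p = 0.174, edgeR). Stag1 and Wiz had the smallest in Prkd3-/- (Log2FC 0.48 ± 0.24 and 0.47 ± 0.21, adjusted p = 0.790 and 0.772). The medians of the list were 0.02 and 0.32, beside 0.04 and 0.07 over all genes tested. Dnmt3b measured 1.36 to 1.85 CPM in WT primary cultures and 0.968 to 2.23 CPM in WT lines. Single lines departed from their cultures. Dnmt1 was at 300, 94.3, 97.1 and 150 CPM in Prkd3-/- lines 13, 13a, 14 and 15, against 73.6 to 158 CPM in the cultures. Uhrf1 was at 243, 63.9, 56.6 and 64.3 CPM against 33.1 to 77.9 CPM. Tet1 was at 0.593, 8.43, 28.8 and 6.29 CPM against 3.82 to 7.14 CPM. Other regulators departed as well. In line 13, Rad21 was at 387 CPM, against 162 to 215 CPM in the cultures, and Tet2 at 6.10 CPM, against 14.2 to 17.0 CPM. The 22 regulators summed to 3222, 1761, 1976 and 2476 CPM in lines 13, 13a, 14 and 15, against 1625 to 2195 CPM in the cultures. The relation of these levels to the isoform profiles was not tested. Of 18 partners and downstream genes, such as the kinases Fyn and Ptk2b and the WAVE complex gene Wasf1, 0 were called in either genotype. In WT the smallest p-values belonged to Wasf1 (Log2FC 0.49 ± 0.09, adjusted p = 0.0350) and Fyn (Log2FC 0.71 ± 0.14, adjusted p = 0.0432), and in Prkd3-/- to Wasf2 and Ptk2b (adjusted p = 0.779 and 0.788). No regulator or partner was called for a difference between genotypes.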

How the data were processed

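The authors mapped read pairs of 100 bases to mm10 (GRCm38) with STAR 2.7.10a, processed them with SAMtools 1.18 and counted them with featureCounts of Subread 2.0.6 on Ensembl release 102, unstranded and with multiple overlaps allowed, and deposited raw counts per gene for 13 libraries. The counting options stand in the WT file header. No command is given for the Prkd3-/- table, which lists the same gene models, and whose Pcdha counts share a common minimum in the same way.

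Symbols came from GENCODE M21 by gene ID (Pcdhgb8, annotated there as no plain protein-coding gene, served only for the baseline), and 55 of 57 matched the RefSeq symbol at the same start. The gene that GENCODE also names Pcdha11 is called Pcdha10, as RefSeq does. Each genotype was fitted with edgeR 4.0.16 in R 4.3.3 (TMM, edgeR's low-count filter, robust quasi-likelihood test, Benjamini-Hochberg adjustment over all genes), and the standard error is the Log2FC divided by the root of F. CPM use TMM library sizes. Floors are 3 counts, and intervals are exact (Clopper-Pearson) and cover counting error only. WT cultures came from separate embryos. For Prkd3-/- this is not given in the sources used here, and p-values then measure only the spread between these samples. Clone numbers pair the states by embryo in WT: deviations of own pairs from their group means correlated by -0.04, 0.04 and -0.05 in WT and by 0.16, -0.30, 0.09 and 0.04 in Prkd3-/- (lines 13, 13a, 14 and 15, with 13a set in block 13 although the labels tie it to no culture). The genotypes were deposited as separate tables and cannot be told apart from any batch of these.

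Named were members called, the leading Pcdha, Pcdhb and Pcdhg isoform of each library, the C-types and, of the lists, genes called or the 2 with the smallest p. Pcdhga and Pcdhgb isoforms, position blocks and single genes within lines or cultures were named after their values were seen. The members and lists were chosen with earlier results of these data known. Alternatives were DESeq2 1.42.0 and its size factors, no filter, a joint fit, the replicate block, lines 13 and 13a summed, each library left out, other thresholds and, added after the data were seen, fits of the excess. The fits were tested on simulated data.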

Additional observations from a re-analysis of the deposited data

Results flagged for a closer look

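Among the 4 Prkd3-/- immortalized lines, 1 line stood apart from the other 3 by Dixon's criterion in 7 of 56 values examined. The values come from the same 4 lines and some are 0, so this count cannot be set against a rate given by chance. In line 14 these were Pcdhb22 at 99.4 CPM (others 17.3 to 24.7 CPM), Pcdhgb1 at 78.2 CPM of excess (others 0.13 to 6.91), Pcdha10 at 2.52 CPM (others 0.00 to 0.428), Pcdha5 at 0.0933 CPM (others 0.00 to 0.0137) and Pcdha8 at 0.0778 CPM (others 0.00), the last of which are 6 and 5 pairs. In line 15 it was Pcdhgb7 at 40.3 CPM (others 2.23 to 6.40), and in line 13 Pcdhgc5 at 4.13 CPM (others 17.5 to 19.4). Pcdhb10 was lower than the primary mean in every WT line (mean log2 ratio -0.76) and higher in every Prkd3-/- line (0.15 to 1.55). The interaction gave an adjusted p of 1.00 in edgeR (difference 2.15 ± 0.91 on the log2 scale, unadjusted p = 0.0360), on levels of 0.0279 to 0.327 CPM.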

How the results depend on the processing

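In WT the number of members called was 3. It was 24 in DESeq2, 17 without a filter on low counts and 21 at an adjusted p under 0.05, but 0 with all 13 libraries in 1 fit and 0 with clone number as a replicate block, and 0 to 5 with single libraries left out. The 24, 17 and 21 each include the 14 Pcdha genes, which amount to 1 measurement. Of all genes, DESeq2 called 1241 lower and 123 higher of 33392. The fit without a filter called 464 and 19 of 33613, and the threshold of 0.05 called 825 and 43 of 19836. In Prkd3-/- it was 0, and 1 in DESeq2. The block left no gene called in WT, the macrophage and endothelial markers included, and lines 13 and 13a summed gave 0 calls. Of the named Log2FCs, 207 alternatives kept their direction and side of the threshold, 19 lost and 8 gained a call, and 6 turned: Pcdhb22 in WT to -0.69 without line 4 (up to 0.96 without other single libraries), Pcdhgc3, Pcdhgc4 and Pcdhgc5 in WT to -0.13, -0.17 and -0.20 without line 5 (up to 0.58, 0.47 and 0.43), and Pcdhgc4 and Pcdhgc5 in Prkd3-/- to -0.027 and -0.052 without line 14 (up to 0.41 and 0.38). The cause was not tested.

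The effective number of Pcdhb isoforms in primary cultures was 9.67 (WT) and 8.53 (Prkd3-/-) per kilobase, and without Pcdhb22 it was 8.84 and 7.78, with 5.48 in WT lines. Leaving out single libraries gave 7.498 to 7.81 in WT cultures, 5.97 to 6.19 in WT lines, 6.996 to 7.07 in Prkd3-/- cultures and 4.84 to 5.87 in Prkd3-/- lines. For Pcdhga and Pcdhgb, in alternatives added after the data were seen, cultures gave 11.7 (WT) and 12.6 (Prkd3-/-) with the second smallest count as the baseline and 13.1 and 13.5 per kilobase, above the means of the lines. Single libraries left out gave 13.3 to 13.5, 7.66 to 9.66, 13.8 to 14.2 and 4.96 to 6.86 in the same order of groups. The mean number of Pcdhb genes at 5% or more of the Pcdhb counts, 5, 7, 6.67 and 5.75 in that order, became 11.3, 8.33, 10.3 and 8.50 at 2% and 3.00, 3.33, 2.67 and 3.00 at 10%, so that the order of the states depends on this threshold. The number of Pcdha and Pcdhg isoforms at 5% or more in WT cultures was 12.7 with the second baseline. Depth limits Pcdha1 to Pcdha12, with 6 to 268 pairs a library, and a baseline gene cannot be given a level.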
